A study of Homo sapiens with 6 samples.

Results

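Among the open chromatin regions of RH30 rhabdomyosarcoma cells, 5749 were distal, shared by every library and held an AP-1 site, but not the central-GC E-box bound by MyoD, near their summit. They were chosen by rule from the 105441 regions that merging the overlapping peaks of all 6 libraries gave on chromosomes 1 to 22 and X. Of these, 47847 regions were called in all 6 libraries, and 37231 of those had the summit of their highest peak over 2 kb from the 5′ end of any protein-coding gene. A member had, within 100 bp of that summit, the 7-base AP-1 consensus (TGACTCA or TGAGTCA, which are one site read on the 2 strands) and no CAGCTG, the palindromic E-box with GC at its centre. The 5749 members were 15.4% of the shared distal regions, against 9466 regions with the E-box only, 2276 with both and 19740 with neither. The highest peak, which set the summit, was that of MyoD-deleted replicate 2 in 48.8% of the members, against 37.7% of all shared regions.

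ATAC-seq reads open chromatin through the insertion of sequencing adapters by the Tn5 transposase. RH30 is a fusion-positive, alveolar rhabdomyosarcoma line, a tumour of the skeletal muscle lineage. The 3 vector libraries came from cells given a non-targeting scramble sgRNA and the 3 MyoD-deleted libraries from cells given sgRNA against MyoD. The labels call the 3 libraries of a group biological replicates. Cas9 was delivered in the study either by lentivirus or by plasmid transfection, and which was used for these cells is not given. The study names the cells of this assay both RH30-SR, which carry an IκBα super repressor, and RH30, as the labels do, and its methods describe both antibiotic-selected pools and single clones, so neither point is settled here.

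AP-1 is a family of dimers of basic leucine zipper proteins, built from JUN, FOS and ATF subunits, that bind this 7-base site and carry signals of the MAP kinases to the genes of growth, stress, adhesion and matrix turnover. The site is common at enhancers of cells with active growth factor signalling. MyoD is the master regulator of skeletal muscle and binds E-boxes (CANNTG), with a preference for a central GC or GG.

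The sequences at the AP-1 sites of the regions on which the results turn are given first, so that the site can be seen beside its flanks. Each is the plus strand of hg38, 61 bases centred on the site nearest the summit and named after the gene, among protein-coding ones, whose 5′ end is closest. Capitals mark the AP-1 site and, where present, the TEAD motif (GGAATG or CATTCC), the E-box with central GG (CAGGTG or CACCTG) and the E-box with central GC (CAGCTG). The members next to the AP-1 subunit genes FOS and JUN were higher in MyoD-deleted cells.
FOS (chr14:75234697-75234757): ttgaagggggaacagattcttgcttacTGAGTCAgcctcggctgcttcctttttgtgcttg
JUN (chr1:58755486-58755546): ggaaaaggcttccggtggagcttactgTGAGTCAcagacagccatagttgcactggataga
The next 6 had the largest called rises, and the site of KRBOX4 has a TEAD motif beside it.
ELL2 (chr5:96068173-96068233): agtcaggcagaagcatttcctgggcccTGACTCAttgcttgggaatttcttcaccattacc
BHLHE41 (chr12:26239559-26239619): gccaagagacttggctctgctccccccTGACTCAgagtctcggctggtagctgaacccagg
RPS6KA5 (chr14:91149532-91149592): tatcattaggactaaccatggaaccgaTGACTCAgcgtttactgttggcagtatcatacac
GSG1 (chr12:13135905-13135965): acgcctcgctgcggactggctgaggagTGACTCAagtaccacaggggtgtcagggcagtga
EDN1 (chr6:12348838-12348898): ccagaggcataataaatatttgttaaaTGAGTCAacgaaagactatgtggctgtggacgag
KRBOX4 (chrX:46325546-46325606): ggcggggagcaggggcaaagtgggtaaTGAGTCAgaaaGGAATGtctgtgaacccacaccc
The next 6 had the largest called falls. ATF7IP shows an AP-1 site between a central-GG E-box and a central-GC E-box whose nearest base lies 99 bp from the summit, so that it reaches past the 100 bp window.
GDPD4 (chr11:77233023-77233083): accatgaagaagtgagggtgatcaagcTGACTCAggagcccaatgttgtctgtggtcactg
SEMA6A (chr5:116645918-116645978): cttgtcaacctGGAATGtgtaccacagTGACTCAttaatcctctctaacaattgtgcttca
ZFP36L2 (chr2:43326262-43326322): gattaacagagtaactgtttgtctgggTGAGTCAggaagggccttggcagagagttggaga
IPO8 (chr12:30599689-30599749): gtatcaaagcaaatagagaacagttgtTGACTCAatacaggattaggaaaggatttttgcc
ATF7IP (chr12:14185531-14185591): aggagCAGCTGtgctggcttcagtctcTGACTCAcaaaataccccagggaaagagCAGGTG
THBS4 (chr5:80076617-80076677): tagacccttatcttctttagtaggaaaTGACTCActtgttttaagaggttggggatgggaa
The last was among the 6 with the highest rank in all libraries, and its height was near-equal in both groups.
PRKAG2 (chr7:151727858-151727918): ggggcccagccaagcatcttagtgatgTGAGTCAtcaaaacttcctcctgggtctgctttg
For the largest rise and the largest fall the whole window of 201 bases that the rule searched is also given.
ELL2 window (chr5:96068138-96068338): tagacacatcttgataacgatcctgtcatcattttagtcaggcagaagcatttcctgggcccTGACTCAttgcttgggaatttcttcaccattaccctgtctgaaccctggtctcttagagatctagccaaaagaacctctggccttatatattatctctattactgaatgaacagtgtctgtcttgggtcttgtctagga
GDPD4 window (chr11:77233039-77233239): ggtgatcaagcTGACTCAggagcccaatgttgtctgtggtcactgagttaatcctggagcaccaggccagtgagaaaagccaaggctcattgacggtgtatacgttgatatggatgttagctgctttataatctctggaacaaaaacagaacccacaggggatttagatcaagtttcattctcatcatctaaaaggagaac

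As to the data behind the values, each library was deposited as a list of 63068 to 80530 peaks, whose fold enrichment and −log10 p together give the whole number of fragments piled up at each summit. The median pileup of a member was 61, 38 and 45 fragments in vector replicates 1 to 3 and 48, 58 and 55 in MyoD-deleted replicates 1 to 3, and the total reads per library are not in the lists. Libraries of one group correlated at 0.957 to 0.978 over the shared regions (Spearman's rho of summit height, across regions) and libraries of different groups at 0.867 to 0.913. All 7 marker genes of skeletal muscle and rhabdomyosarcoma that were looked up (MYOD1, MYOG, DES, CHRNA1, CDH15, PAX3 and FGFR4) had a peak at the gene in all 6 libraries, and none of the 9 markers of blood, epithelium or endothelium had one in all 6. The region at the 5′ end of MYOD1 (chr11:17719004-17720574) stood at a height of 2.75, 2.84 and 2.94 in the vector libraries and of 2.14, 2.50 and 2.43 in the MyoD-deleted ones (two-sided exact permutation test, p = 0.1, the smallest that 3 libraries against 3 allow). Open chromatin at the gene does not show whether the protein was lost.

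Height here is the log2 of the pileup at the highest summit of a region over the smallest background of the same library, centred so that the median shared region of each library is 0. On this scale the members were of middling to low height, and they were higher in MyoD-deleted cells. The median member stood at −0.41, −0.56 and −0.55 in vector replicates 1, 2 and 3 and at −0.27, −0.19 and −0.31 in MyoD-deleted replicates 1, 2 and 3. The groups did not overlap, with means of −0.51 ± 0.085 and −0.26 ± 0.062 (SD, n = 3 each). The E-box-only regions went from −0.07 ± 0.020 to −0.36 ± 0.075, the regions with both sites from −0.05 ± 0.043 to −0.08 ± 0.033, and the regions with neither from −0.50 ± 0.021 to −0.40 ± 0.0073. In vector cells the AP-1-only and the neither regions had a like median, and in MyoD-deleted cells the AP-1-only regions stood above them. In a bulk assay, a region open in fewer cells and a region less open in each cell cannot be told apart.

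**Figure D1:**
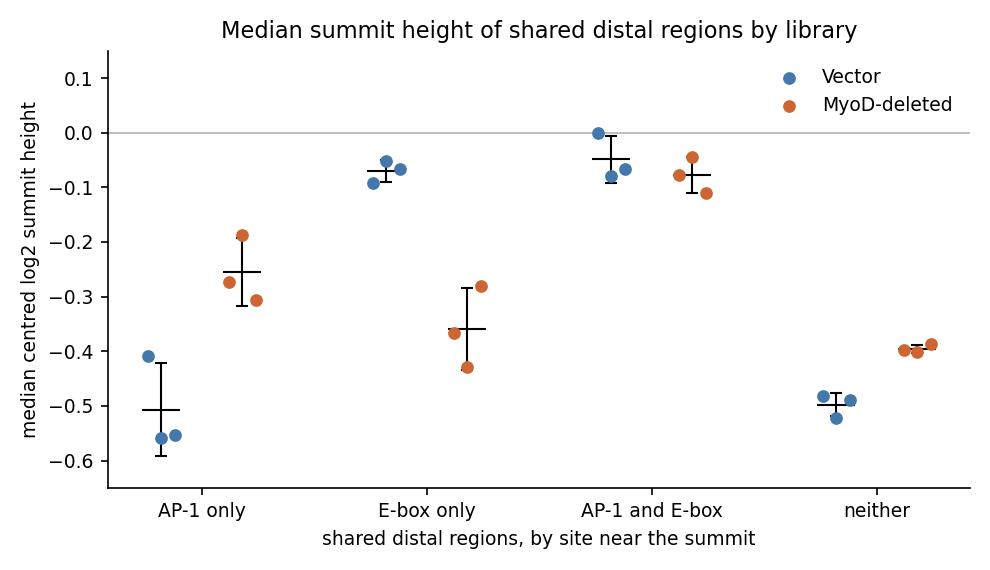
Median centred log2 summit height (vertical axis) of the 4 classes of shared distal regions (horizontal axis), with 1 point per library, vector in blue and MyoD-deleted in orange, and with the mean and SD of the 3 libraries of a group in black. The AP-1-only medians run from −0.56 to −0.41 in vector libraries and from −0.31 to −0.19 in MyoD-deleted libraries, and the E-box-only medians move the other way.

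Single regions were tested with limma over all 47847 shared regions, with Benjamini-Hochberg adjustment and a call at an adjusted p under 0.05. By height, 1457 members (25.3%) rose and 429 (7.46%) fell in MyoD-deleted cells, against a background of 11.4% of all shared regions called higher and 12.8% called lower. Of the E-box-only regions 5.64% rose and 30.9% fell, and of the regions with neither site 13.9% rose and 10.1% fell. The median change of the members was 0.21, with 69.9% above 0, beside −0.20 for E-box only, −0.05 for both, 0.08 for neither and 0.04 for all shared regions. With MyoD-deleted replicate 2, which set more summits than any other library, left out of the fit, 930 members rose and 329 fell by height. The members and their summits were kept as they were, so this fit cannot show how that library affected their choice. The middle 80% of the members lay between −0.38 and 0.85. In 1994 members (34.7%) all 3 MyoD-deleted libraries stood above all 3 vector libraries and in 667 (11.6%) below them, against 19.8% and 18.1% of all shared regions.

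**Figure D2:**
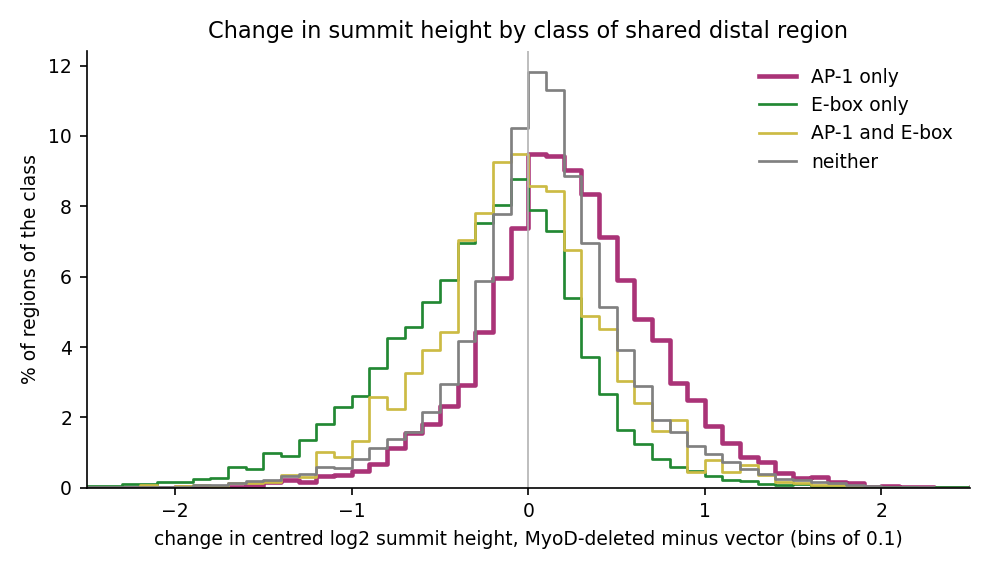
Change in centred log2 summit height, MyoD-deleted minus vector (horizontal axis, bins of 0.1), as a percentage of the regions of each class of shared distal regions (vertical axis). The AP-1-only curve, with its median at 0.21, lies to the right of the other 3, and the E-box-only curve, with its median at −0.20, to the left.

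The second measure was the rank of the fold enrichment of a region within its library, which sets the pileup against the local background and not against the whole library. The median member ranked at percentile 46.2, 40.3 and 40.4 in vector replicates 1, 2 and 3 and at 49.2, 52.3 and 47.3 in MyoD-deleted replicates 1, 2 and 3. The groups did not overlap here either, and vector replicate 1 was the nearest to the MyoD-deleted libraries in both measures. By rank, 517 members (8.99%) rose and 132 (2.30%) fell, against a background of 4.12% and 4.67%. The median member moved by 3.79 percentile points, beside −4.09 for E-box-only regions. The number of rank calls rested on single libraries: 155 members rose and 54 fell without vector replicate 2, 204 and 58 without vector replicate 3, 211 and 63 without MyoD-deleted replicate 1, 134 and 50 without MyoD-deleted replicate 2, and 335 and 89 without MyoD-deleted replicate 3. More rose than fell in each case, and the shares of all shared regions in these fits were not taken. In all, 461 members rose by both measures and 108 fell by both.

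Without the centring, the median change of all shared regions was itself 0.23 upwards in MyoD-deleted libraries. On that scale 2410 members (41.9%) rose and 228 (3.97%) fell, against 24.7% and 8.03% of all shared regions, and the median change of the members was 0.40. Rises were thus 77.3% of the member calls with centring and 91.4% without it.

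The distance between the site and the summit was not uniform. The site nearest the summit was most often 21 to 30 bp away, with 46.3 members per base position, against 24.9 per position at 0 to 10 bp and 19.3 at 81 to 97 bp, where 97 bp is the farthest centre that the window can hold. The central-GC E-box in E-box-only regions had a lesser dip at the summit. It lay at 0 to 4 bp in 5.40% of regions, at 5 to 9 bp in 7.04% and at 20 to 24 bp in 6.89%. For the AP-1 site these shares were 3.01%, 5.13% and 8.56%, with slightly fewer positions in the first bin than for the E-box. The share of members that rose was between 22.4% and 26.9% in the 7 distance ranges and the median change between 0.20 and 0.24. The share that fell was 5.66% to 6.80% in the 4 ranges up to 40 bp and 8.24% to 8.63% in the 3 beyond. These distances pool both sides of the summit, which were uneven for the AP-1 site. At most distances more sites lay on the side of lower plus-strand coordinates, as with 43 members at −50 bp and 25 at 50 bp. Some distances went the other way, as with 34 members at −5 bp and 40 at 5 bp. The cause of this unevenness was not tested. The summit of each library's own highest peak lay a median of 44 to 49 bp from the AP-1 site nearest the common summit. How far the summits of single libraries lay from the common summit was not measured. How finely the summits resolve such distances is therefore not known.

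**Figure D3:**
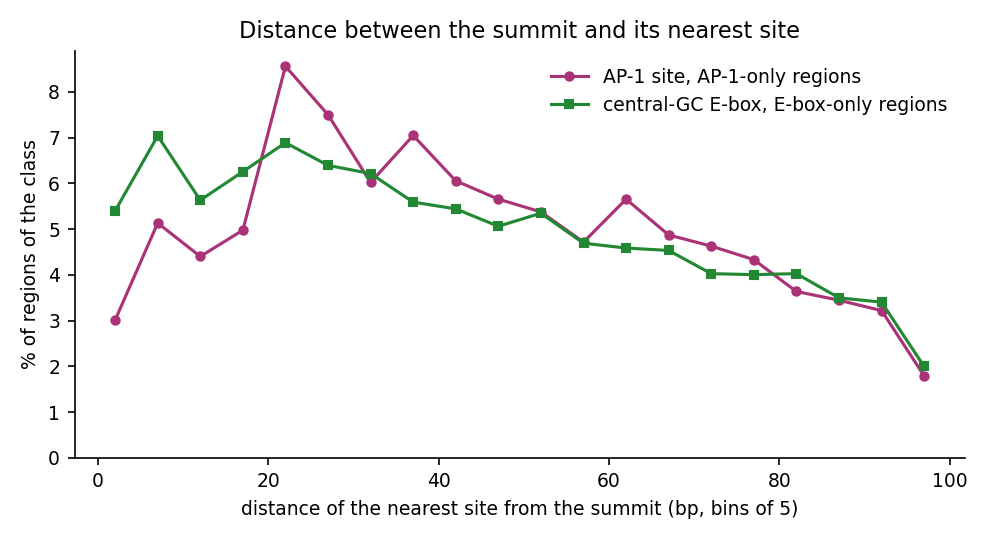
Distance from the summit to the centre of the nearest site (horizontal axis, bins of 5 bp) as a percentage of regions (vertical axis), for the AP-1 site in AP-1-only regions and the central-GC E-box in E-box-only regions. Both sides of the summit are pooled. The AP-1 curve is low next to the summit, at 3.01% for 0 to 4 bp, and has its top at 8.56% for 20 to 24 bp.

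A single AP-1 site was held by 5119 members, 2 sites by 587 and 3 or more by 43. Members with 2 sites were higher over the 6 libraries, with a median height of −0.29 against −0.44 for those with 1 and 0.17 for those with 3 or more. Of the members with 2 sites 25.7% rose and 4.26% fell, and of those with 1 site 25.2% rose and 7.83% fell. The site had C at its centre on the plus strand in 2870 members and G in 2879, so neither strand was favoured.

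The base on each side of the site, which the rule did not use, was far from even. The 16 possible flanks are written here as 9 bases read on the strand with G at the centre, and they are set against the 458327 AP-1 sites of the same chromosomes of hg38, of which 12.5 in 1000 were the summit site of a member. Of the sites GTGAGTCAT and ATGAGTCAT 24.5 in 1000 were, and of ATGAGTCAC 22.4 in 1000. At the other end, TTGAGTCAA gave 1.57 in 1000, GTGAGTCAA 2.95 and CTGAGTCAA 3.19. The 7 flank pairs with T before or A after the site (TTGAGTCAC, TTGAGTCAT, ATGAGTCAA, TTGAGTCAG, CTGAGTCAA, GTGAGTCAA and TTGAGTCAA) were the 7 lowest. The flank was not so clearly tied to the change in MyoD-deleted cells: the median change ran from 0.09 for the 39 members with TTGAGTCAA to 0.29 for the 107 with GTGAGTCAA, and it was above 0 for each of the 16. The extended site GCTGAGTCA, to which heterodimers of CNC and small MAF proteins bind, was held by 548 members, of which 26.3% rose and 6.02% fell.

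Members that held a second E-box changed differently from those that did not. The E-box with central GG (CAGGTG), another site of MyoD and its E-protein partners, was within 100 bp of the summit in 806 members (14.0%, against 16.7% of the other shared distal regions and 15.3% of all shared regions). Of these 13.8% rose and 21.7% fell, with a median change of −0.06, and of the other members 27.2% rose and 5.14% fell, with a median change of 0.25. The direction in those with CAGGTG turned with the scaling: without centring 23.4% of them rose and 12.2% fell, with a median of 0.14, against 44.9% and 2.63% and a median of 0.44 in the other members. By rank 5.46% of them rose and 5.83% fell, against 9.57% and 1.72%. CAGATG was held by 1233 members (21.4%, against 19.0% and 16.4%), of which 20.3% rose and 9.81% fell, with a median of 0.13. CATATG was in 240 members, of which 48 rose and 22 fell, and CACGTG, the site of MYC and MAX, in 166, of which 19.9% rose and 13.9% fell. The central-GC E-box, barred from the window by the rule, was present elsewhere in the merged region in 2446 members. It was held by 61.1% of the 429 members that fell, 36.0% of the 1457 that rose and 43.0% of those not called. The median widths of these regions were 1096, 946 and 968 bp, and the part of width in the shares was not tested. All 6 regions with the largest falls held one, 99 to 338 bp from the summit, and 3 of the 6 with the largest rises did, 225 to 533 bp from it.

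The TEAD motif (GGAATG), bound by the TEAD factors with YAP, was in 1132 members (19.7%, against 18.5% of the other shared distal regions and 16.1% of all shared regions), of which 30.4% rose and 5.48% fell, with a median of 0.26 against 0.20 for the rest. Split by CAGGTG as well, the medians by library moved apart. In the 992 members with TEAD and no CAGGTG they were −0.36, −0.54 and −0.55 in vector replicates 1 to 3 and −0.12, −0.02 and −0.16 in MyoD-deleted replicates 1 to 3. In the 666 members with CAGGTG and no TEAD they were −0.32, −0.45 and −0.43 in vector libraries and −0.47, −0.49 and −0.50 in MyoD-deleted ones. On this centred scale the first set was higher in every MyoD-deleted library and the second lower, by a small margin. Without centring the second set turned as well, with 23.1% of its regions called higher, 12.5% lower and a median change of 0.13. In the 140 members with both, 14.3% rose and 22.1% fell with centring, 25.0% and 10.7% without it, and 8 regions rose and 5 fell by rank. The regions with neither AP-1 site nor central-GC E-box showed the same order, as 21.8% of those with CAGGTG fell and 5.32% rose (15.3% and 15.0% without centring), whereas 19.8% of those with TEAD rose and 10.2% fell.

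**Figure D4:**
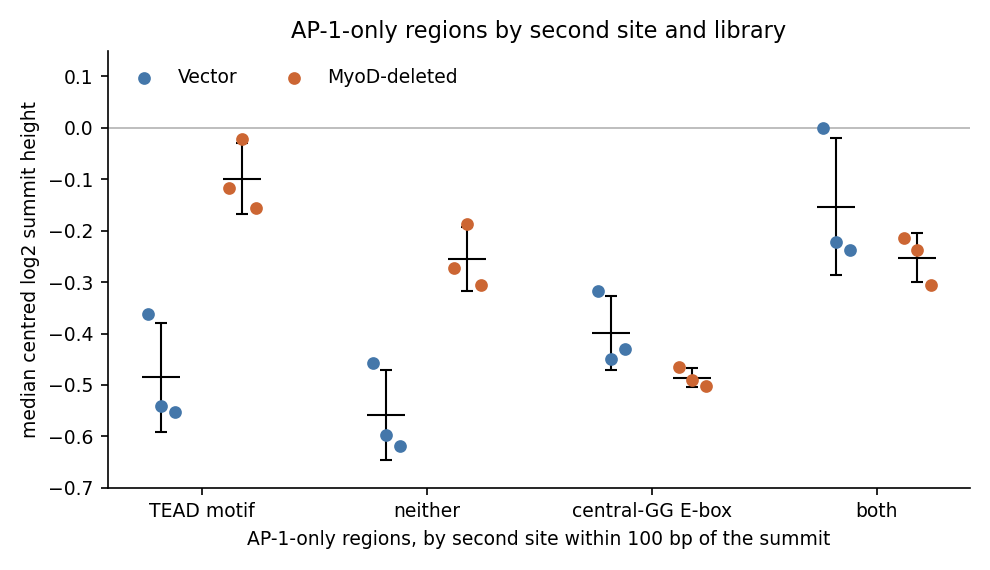
Median centred log2 summit height (vertical axis) of AP-1-only regions split by a second site within 100 bp of the summit (horizontal axis), with 1 point per library and the mean and SD of the 3 libraries of each group. Regions with the TEAD motif or with neither second site lie higher in the MyoD-deleted libraries, and those with the central-GG E-box alone lie lower on this centred scale, though not without centring, with vector medians of −0.45 to −0.32 and MyoD-deleted medians of −0.50 to −0.47.

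Of the other motifs, RUNX (TGTGGT) was in 23.6% of members against 23.8% of the other shared distal regions and 19.98% of all shared regions, and forkhead (TGTTTAC) in 2.26% against 2.48% and 2.16%. ETS (CCGGAA) was in 3.25% against 4.95% and 8.55%, SP1 (GGGCGG) in 7.48% against 14.7% and 24.5%, and the CRE (TGACGTCA) in 22 members. The full NFI palindrome was in 3. All motifs were searched on both strands in the 201 bases around the summit, matches could overlap, and the extended AP-1 site contains the AP-1 site. All shared regions include the promoters, which are rich in G and C: the median GC content was 47.8% in members, 52.7% in E-box-only regions and 68.2% within 2 kb of a gene start. With RUNX 27.2% of members rose and 7.82% fell, and with ETS 20.3% rose and 9.09% fell, close to the 25.3% and 7.46% of all members.

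The members lay far from genes. The median distance to the nearest protein-coding 5′ end was 50.6 kb, against 41.5 kb for the other shared distal regions, and 26.9% of members were 100 to 500 kb and 3.67% over 500 kb away. The summit lay in an intron of a protein-coding gene in 49.2% of members, between genes in 30.5%, in an intron of a non-coding gene in 13.1%, in an exon of a non-coding transcript in 4.28%, in an untranslated region in 2.04% and in a coding exon in 0.90%. The share that rose differed little between these places, from 21.2% in the 52 coding exons to 26.02% in exons of non-coding transcripts. Among the 211 members over 500 kb from a gene 16.6% rose and 13.3% fell, and among the 2143 at 10 to 50 kb 27.4% rose and 6.86% fell. Another member lay within 10 kb of 433 members (7.53%).

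The 6 members with the largest rises among those called by both measures were all low in vector cells and near or above the median shared region in MyoD-deleted cells. The largest was chr5:96067622-96068612, 106 kb upstream of ELL2, an elongation factor of RNA polymerase II, in an intron of a non-coding gene. Its height was −1.39, −2.35 and −2.87 in vector replicates 1 to 3 and 0.35, 0.56 and 0.12 in MyoD-deleted replicates 1 to 3, a change of 2.55 ± 0.28 (SE, adjusted p = 6.8e-06). In fragments, the pileup went from 31, 11 and 9 to 74, 97 and 74. The groups were far apart, with vector replicate 1 the highest of its group. The member 115 kb upstream of BHLHE41, a basic helix-loop-helix repressor, lies in an intron of SSPN (chr12:26238462-26240265). It stood at −1.34, −1.16 and −0.92 in vector libraries and at 1.13, 0.96 and 1.33 in MyoD-deleted ones, a change of 2.28 ± 0.17 (adjusted p = 1.84e-07). Both groups were tight.

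The member 89.0 kb upstream of RPS6KA5, a kinase that acts below the MAP kinases on chromatin, lies in an intron of DGLUCY (chr14:91149318-91150107) and went from −1.82, −1.72 and −1.87 to 0.29, 0.40 and 0.37, a change of 2.16 ± 0.18. The member 32.3 kb upstream of GSG1, in an intron of FAM234B (chr12:13135497-13136245), changed by 2.09 ± 0.25, with vector replicate 2 the lowest at −2.49. The intergenic member 58.5 kb from EDN1, which encodes the vasoconstrictor endothelin 1 (chr6:12348416-12349270), went from −1.64, −2.22 and −1.72 to 0.05, 0.22 and 0.36, a change of 2.07 ± 0.21. The member 122 kb upstream of KRBOX4, with the TEAD motif (chrX:46325297-46326268), changed by 2.06 ± 0.24, from vector heights spread over −1.90 to −0.61. In each of these the lowest MyoD-deleted library was above the highest vector library. The 6 calls by height held without any 1 library. The call by rank was lost for ELL2 without vector replicate 2 or MyoD-deleted replicate 2 (adjusted p = 0.0532 and 0.0548), for GSG1 without MyoD-deleted replicate 1 or 2 (0.0534 and 0.0577), for BHLHE41 when any 1 library other than vector replicate 3 was left out (0.0592 to 0.111) and for KRBOX4 when any 1 other than vector replicate 1 was (0.0702 to 0.157).

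The 6 largest falls started higher. The region in a coding exon of GDPD4, a member of the glycerophosphodiester phosphodiesterase family (chr11:77232416-77233775), stood at 0.52, 0.68 and 0.40 in vector libraries and at −1.40, −1.80 and −1.56 in MyoD-deleted ones, a change of −2.12 ± 0.18 (adjusted p = 7.39e-07). The region 71.1 kb upstream of SEMA6A, a membrane-bound guidance protein (chr5:116645281-116646457), has a TEAD motif beside its AP-1 site and went from 0.79, 1.09 and 0.87 to −0.65, −1.34 and −1.09, a change of −1.94 ± 0.18. It is thus 1 of the 62 members with the motif that fell. The region 99.8 kb upstream of ZFP36L2, in an intron of THADA (chr2:43325925-43327248), also has a TEAD motif and changed by −1.91 ± 0.20.

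The region near IPO8 (chr12:30599105-30600194), an importin gene, changed by −1.83 ± 0.20. The region 180 kb upstream of ATF7IP (chr12:14185229-14186328), whose site lies between E-boxes, was the tallest of the 6 in vector cells, at 1.38, 1.54 and 1.58, and stood at −0.47, −0.52 and 0.14 in MyoD-deleted cells, a change of −1.78 ± 0.16. The region in an intron of THBS4, a matrix thrombospondin (chr5:80075992-80077255), changed by −1.75 ± 0.24. ATF7IP was the only one of the 6 with the central-GG E-box in the window. In all 6 the groups were apart, and the calls by height held without any 1 library. The call by rank was lost for SEMA6A without vector replicate 2 or MyoD-deleted replicate 2 or 3 (adjusted p = 0.0869, 0.0825 and 0.061) and for ATF7IP without vector replicate 2 or MyoD-deleted replicate 2 (0.0518 and 0.0541).

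**Figure D5:**
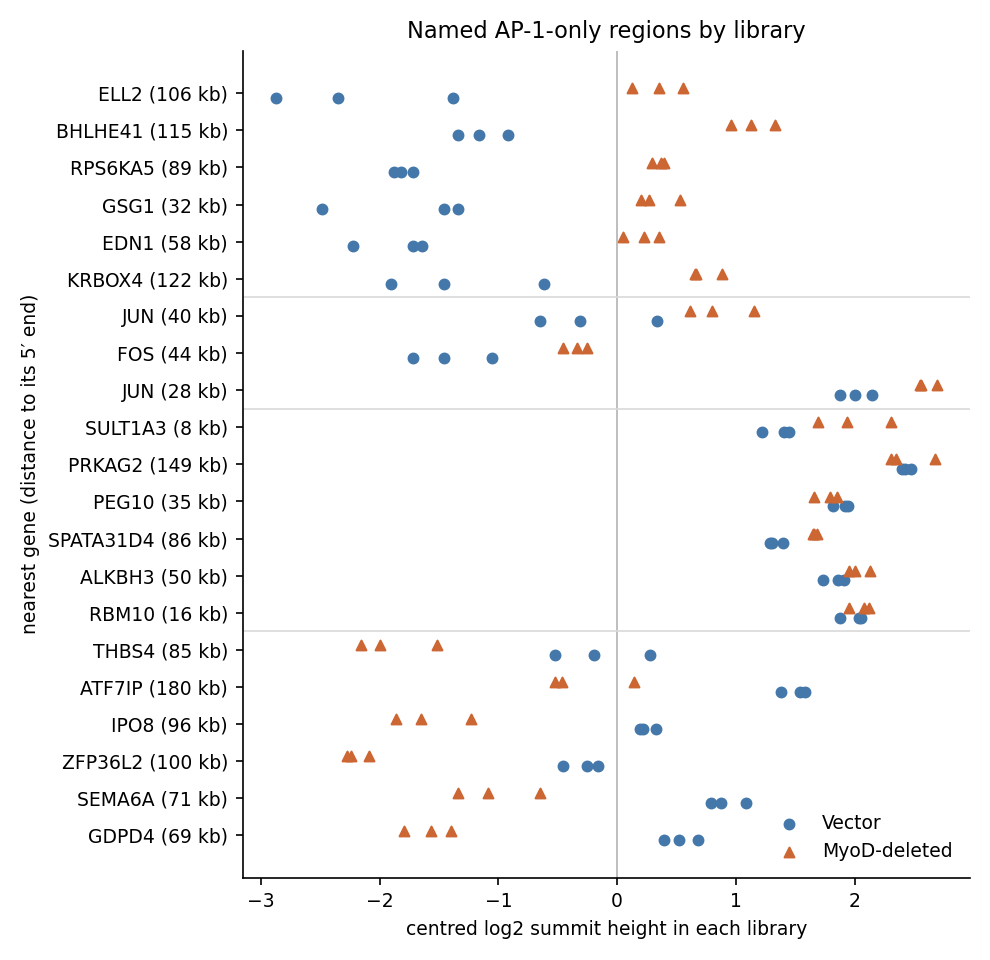
Centred log2 summit height (horizontal axis) in each of the 6 libraries, vector as blue circles and MyoD-deleted as orange triangles, for 21 named AP-1-only regions, given by the nearest gene and the distance to its 5′ end (vertical axis). From the top, the blocks are the 6 largest rises, 3 regions at JUN and FOS, the 6 with the highest rank and the 6 largest falls, and the heights of the highest-rank block are above 1 in every library.

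The members that ranked highest changed little. The region 149 kb into PRKAG2, a regulatory subunit of the energy sensor AMPK (chr7:151727427-151728318), stood at 2.40, 2.42 and 2.48 in vector and 2.31, 2.68 and 2.35 in MyoD-deleted libraries, a difference of 0.01 ± 0.10. The regions near PEG10 (chr7:94620701-94621610), ALKBH3 (chr11:43830617-43831540) and RBM10 (chrX:47128947-47129898) differed by −0.12, 0.19 and 0.06, none past the threshold. The 2 others of the 6 rose by height and not by rank, those near SULT1A3 (chr16:30207071-30208003) by 0.62 ± 0.13 and near SPATA31D4 (chr9:81842467-81843205) by 0.34 ± 0.10, which did not hold without vector replicate 3 or any 1 MyoD-deleted library (adjusted p of 0.0555 to 0.0700). Both genes have near-identical copies in the genome, so the reads of these 2 regions may belong to more than 1 place.

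Next to the genes of the AP-1 subunits themselves, 5 of the 6 members within 100 kb of JUN and FOS rose by height, beside 25.3% of all members. JUN and FOS were put together after their values were seen. At no other subunit gene did a member within 100 kb rise, and 1 each fell near JUND and ATF3. Of the 14 subunit genes, 11 had a member within 100 kb of the 5′ end. JUN, the founding subunit, had 5, of which 4 rose by height. The nearest, 28.5 kb downstream (chr1:58755073-58756033), went from 2.14, 1.88 and 2.00 to 2.55, 2.69 and 2.56, a change of 0.59 ± 0.10 (adjusted p = 0.000269). The one 39.6 kb upstream, with 2 AP-1 sites (chr1:58823369-58824197), went from 0.33, −0.32 and −0.65 to 0.80, 1.16 and 0.61, a change of 1.07 ± 0.21. FOS, the partner of JUN, had 1 member, 44.1 kb upstream (chr14:75234227-75234993). It went from −1.05, −1.72 and −1.46 to −0.33, −0.46 and −0.25, a change of 1.06 ± 0.21 (adjusted p = 0.00109). By rank, no member near JUN or FOS named here passed the threshold, with adjusted p of 0.443 and 0.0527 for JUN and 0.0984 for FOS.

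The tall member 12.0 kb upstream of FOSB, in an intron of ERCC1 (chr19:45455573-45456598), stood at 2.77, 2.95 and 3.18 in vector and 2.80, 2.84 and 2.85 in MyoD-deleted libraries and did not pass the test (−0.13 ± 0.10, adjusted p = 0.37). The nearest members to FOSL1, FOSL2, JUND, ATF2, ATF7, BATF2 and BATF3 differed by −0.33 to 0.51 and did not pass it either, while 1 of the 3 members within 100 kb of JUND fell. Near ATF3, a stress-induced subunit, the nearest member was 79.2 kb away and fell (chr1:212484740-212486653, by height from 2.23, 2.19 and 2.28 to 1.43, 1.39 and 1.28, adjusted p = 8.73e-06), and the 5′ end of NENF is closer to it. JUNB, BATF and JDP2 had no member within 100 kb. Assigned by the nearest 5′ end, 4 of the 15 members of subunit genes rose by height and 0 fell by limma (6 and 0 at an unadjusted p under 0.05), and the median change was 0.20, beside 0.21 for all members. The share that rose was thus 26.7%, close to the 25.3% of all members. By this assignment JUN had 6 members, of which 3 rose, with changes from −0.32 to 1.07.

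The genes around AP-1 gave the same picture of few calls per gene. Of 25 members at 9 genes of MAP kinase feedback (DUSP phosphatases, SPRY and SPRED inhibitors), 5 rose and 1 fell, with a median of 0.14. The one 12.9 kb from DUSP1, a phosphatase that switches MAP kinases off (chr5:172757730-172758644), rose by 1.57 ± 0.20, from −1.34, −1.81 and −1.34 to 0.29, 0.00 and −0.07, and the one 707 kb from SPRY2 fell. By rank neither passed the threshold (adjusted p = 0.089 and 0.504).

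Of 15 members at known AP-1 target genes, 6 rose and 0 fell by limma on height (8 and 0 at an unadjusted p under 0.05), with a median of 0.35, and 1 rose by rank. The 6 were 1 each near MMP9 and MMP13, matrix metalloproteinases, CD44, the hyaluronan receptor, VIM, the intermediate filament vimentin, CXCL8, a chemokine, and VEGFA. The one in an intron of CD44 (chr11:35214433-35215463) went from −0.30, −1.81 and −1.80 to −0.10, 0.28 and −0.16, a change of 1.31 ± 0.30, with vector replicate 1 close to the MyoD-deleted group. By rank this CD44 region did not pass the threshold (adjusted p = 0.0891). Of 29 members at genes of matrix and adhesion, 9 rose and 2 fell by height, with a median of 0.39, and 0 rose and 2 fell by rank. They included a rise of 1.20 ± 0.27 upstream of COL6A2 (chr21:46060295-46061234) and a fall of −0.70 ± 0.22 far upstream of COL3A1 (chr2:188675667-188676455). The fall near COL3A1 was lost without vector replicate 2 or 3 or MyoD-deleted replicate 2 or 3 (adjusted p of 0.0519 to 0.133) and without centring (0.0786). Of 24 members at genes of TEAD and YAP and their targets, 6 rose and 2 fell, with a median of 0.24. They included both members of NT5E, an ectonucleotidase, of which the one 88.0 kb upstream rose by 1.53 ± 0.19, and 1 rise and 1 fall among the 5 members of THBS1, of which the fall was lost without centring (adjusted p = 0.0869). By rank, neither that NT5E region nor the THBS1 fall passed (adjusted p = 0.0503 and 0.182).

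The genes of muscle differentiation had few members, and none rose by height. Of 33 such genes 8 had a member, 12 members in all, of which 0 rose and 1 fell by limma (0 and 1 at an unadjusted p under 0.05), with a median of −0.10. The one that fell, 554 kb upstream of MEF2C, a partner of MyoD (chr5:89457363-89458824), went from 1.72, 2.03 and 1.81 to 1.31, 1.25 and 1.61 (adjusted p = 0.00954), a call lost without vector replicate 2 or MyoD-deleted replicate 1 or 2 (adjusted p of 0.0532 to 0.0773) and without centring (0.148). Without the centring 2 of the 12 rose and 0 fell, and by rank 1 rose. The same genes had 121 other shared regions, promoters included, of which 7 rose and 47 fell. At the genes of the other lists more such regions fell than rose at MAP kinase feedback genes (5 rose and 23 fell of 102) and AP-1 target genes (7 and 10 of 49). The counts were 10 and 10 of 60 at AP-1 subunit genes, 26 and 22 of 135 at matrix genes and 31 and 11 of 111 at TEAD and YAP genes. At genes of NF-κB, cell death and DNA methylation they were 12 and 12 of 96. Of all shared regions 11.4% rose and 12.8% fell. Of 16 members at genes of NF-κB, cell death and DNA methylation, 5 rose and 1 fell, with a median of 0.37. The region in an intron of DNMT1, the maintenance DNA methyltransferase (chr19:10205997-10206819), went from −1.25, −1.64 and −1.29 to −0.73, −0.34 and −0.11, a change of 1.00 ± 0.21, and it rose by rank as well (adjusted p = 0.0349), though not without vector replicate 2 or 3 or MyoD-deleted replicate 2 or 3 (0.0786 to 0.114). The single member assigned to CYLD, a deubiquitinase, differed by 0.38 and did not pass the test. These lists are small, and their counts are a description beside the 25.3% and 7.46% of all members.

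By number of members, MYC and CLIC6 led with 9 each, and FGGY and ZFP36L1 had 8 each, of the 3902 genes that had any. The 9 members around MYC, a growth regulator in a wide gene-poor stretch, lay 116 to 931 kb from its 5′ end, of which 4 rose by height and 2 by rank. By height 25.3% of all members and 11.4% of all shared regions rose, and by rank 8.99% and 4.12%. The 9 differences were all above 0, from 0.06 to 1.08, beside 69.9% of all members. These regions lie around 1 gene, and whether they vary independently was not tested. Of the 9 around CLIC6 1 rose and 1 fell, with a median of −0.02. Of the 8 around ZFP36L1 2 rose, and of the 8 around FGGY 2 rose, close to the 25.3% of all members.

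At the edges of the rule, the members just over 2 kb from a gene, 2006 bp from GNG2 and 2008 bp from C8orf58, differed by 0.34 and 0.42, and the regions just under it, 1993 bp from MT1E and 1992 bp from CGB1, by 0.49 and 0.21. The 41 members with a site at the last position of the window, 97 bp from the summit, had a median change of 0.19, and the 26 regions that held it 1 base farther out had 0.09.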

How the data were processed

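According to the methods, the authors mapped read pairs to hg38 with Rsubread and ran MACS2 on each library, and 1 peak list per library was deposited. The fold enrichment in the deposited lists is the ratio of summit pileup to local background, the deposited −log10 p and −log10 q and the score (10 times −log10 q) belong to the same summit, and none is normalized between libraries. The authors' own count test could not be run, since counts per region were not used here. Pileups were recovered from fold enrichment and −log10 p for 100% of peaks, within 0.05 of the gap between whole numbers.

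Overlapping peaks were merged (bedtools 2.31.1 gave the same 105441 regions). Each region was assigned to the nearest of 19970 protein-coding 5′ ends of GENCODE 44. Inverse-normal ranks of fold enrichment and centred heights were compared with limma 3.58.1 (R 4.3.3, trend, no block) and Benjamini-Hochberg adjustment over 47847 regions. The p-values measure the spread between these libraries.

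Members, gene lists and motifs were chosen with earlier results of these data known, and the rule itself used the peak calls and summits of all 6 libraries. Regions named are the 6 highest by mean rank, the 6 largest rises and falls called by both measures without overlap, the nearest member to each AP-1 subunit gene, the largest call per gene list and direction, the genes with the most members, and those at the thresholds. Other genes named in a count were named after their values were seen. The results of 2 gene lists are not reported here. Alternatives were a replicate block, leaving out single libraries, stricter peaks, 50% cover, transcript 5′ ends, windows of 50 and 200 bp, ranks of −log10 p and heights without centring, and, added after seeing the data, other choices of the summit.

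On simulated data for this comparison, with 200 of 47847 regions shifted, the height test called 89.5% at a shift of 1.5, 49.5% at 1.0 and 0 at 0.5, and the rank test 73.5%, 18.5% and 0, with at most 3 unshifted regions called. Python 3.11.15, pysam 0.24.0 and samtools 1.23.1 were also used.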

Additional observations from a re-analysis of the deposited data

How the results depend on the processing

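Among members, more rose than fell under every alternative run, and both median changes stayed above 0. Shares of all shared regions were taken only for the main fits and for heights without centring. The other counts therefore describe the members alone. A window of 50 bp left 3831 members, of which 309 rose by rank and 884 by height. With peaks that cover 50% of the region, 290 rose and 62 fell by rank. With ranks of −log10 p, 1127 rose and 329 fell. Without centring, 2410 rose and 228 fell by height, with a median change of 0.40. On that scale more of all shared regions rose than fell as well (24.7% and 8.03%). Leaving 1 library at a time out of the fit, with the members kept, 134 to 695 rose and 50 to 108 fell by rank, and 930 to 1730 rose by height. The causes of these shifts were not tested. Other choices of the summit, added after seeing the data, gave 5738 members with the median summit of the 6 libraries and 5593 with the highest summit of the vector libraries, of which 1476 and 1430 rose by height.

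With the replicate block, 374 members rose and 79 fell by rank, and 1342 rose and 391 fell by height. Libraries of the same number did not deviate together, with correlations of −0.04, −0.20 and 0.09 between deviations from the group means over the shared regions, so the numbers name libraries and do not pair them. The replicate block ended 1 call among the named regions, that of KRBOX4 by rank (adjusted p = 0.0667).

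Of the 43 named regions, leaving out 1 library ended a call by height in 14 of 258 fits and by rank in 27, and no called direction turned. Total reads are unknown, so counting error is not given, and shifts of 0.5 were missed in the simulation.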
